A study of Mus musculus with 4 samples.

Results

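The Ifitm genes encode small interferon-induced transmembrane proteins. The 6 listed mouse members, Ifitm1, Ifitm2, Ifitm3, Ifitm5, Ifitm6 and Ifitm7, were taken by symbol from the 23309 genes of the deposited expression table, and all 6 were found there. The family was chosen by its deposited FPKM values in the genotypes, which were already known, so its difference between the genotypes is given as a description and no test of that difference is added. The mutant cells were embryonic stem cells of the mouse strain 129/Ola with the genotype Chd2 mut/mut, called Chd2KO in the titles and Chd2mut/mut in the table. They were set against wild-type (WT) cells of that strain. Chd2 encodes an ATP-dependent chromatin remodeler. Each genotype had 2 RNA sequencing libraries, marked lot 1 and lot 2. Both genotypes were at passages 10 to 20 and grew on gelatin, without feeder cells being mentioned, in medium with 10% fetal bovine serum and 1000 U/ml of leukemia inhibitory factor. The labels do not say what the mutant alleles are, whether the mutant cells are 1 clone, or whether the lots were separate cultures.

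The table gives 1 FPKM value per gene and genotype. FPKM is a count of sequenced fragments scaled to the length of the transcript and to the number of mapped fragments, so levels of different genes can be set side by side. Values of the separate libraries are not analysed here. Each level is therefore the authors' value for a genotype, without a standard deviation, and the depth of the libraries is unknown. The call of a gene, and the q-value behind it, are those of the authors' deposited table. Its q-values may reflect technical spread only, and the sources used here do not give the test behind them.

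IFITM proteins sit in the plasma membrane and in endosomal membranes, carry palmitate groups, and hinder the entry of many enveloped viruses by acting on membrane fusion. In most somatic cells the genes for IFITM1, IFITM2 and IFITM3 are switched on by interferon through its receptors and the Janus kinases, and human pluripotent cells express some of them without added interferon. In the mouse embryo Ifitm3, also called fragilis, and Ifitm1 are known from the precursors of germ cells. Ifitm5, also called Bril, is a gene of bone-forming osteoblasts.

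Of the 6 genes, 5 lie side by side on mouse chromosome 7 (RefSeq annotation of GRCm38.p6, whereas the authors used mm9). In that order they are Ifitm5 (chr7:140948958-140950243), Ifitm2 (chr7:140954837-140959686), Ifitm1 (chr7:140967429-140969827), Ifitm3 (chr7:141009590-141010744) and Ifitm6 (chr7:141015812-141016892). Ifitm1 is the one of the 5 that is transcribed from the plus strand. Ifitm7 lies apart, at chr16:13981702-13986867 on the minus strand.

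Stretches before 1 annotated start of each abundant member are shown for these neighbouring genes, which were chosen with their levels known. They are RefSeq sequences of GRCm38.p6, written 5′ to 3′ on the strand of the gene and cut where an exon of GENCODE M21 begins. The RefSeq spans of Ifitm1 and Ifitm2 given above begin farther upstream than the starts used here, so their stretches lie inside those spans and belong to an internal start. Capitals mark matches to GAAA-NN-GAAA, the core of the interferon-stimulated response element. For Ifitm3, whose matches fall in the first exon, only the 30 bases around them are shown.
Ifitm1, chr7:140967826-140968027, plus strand: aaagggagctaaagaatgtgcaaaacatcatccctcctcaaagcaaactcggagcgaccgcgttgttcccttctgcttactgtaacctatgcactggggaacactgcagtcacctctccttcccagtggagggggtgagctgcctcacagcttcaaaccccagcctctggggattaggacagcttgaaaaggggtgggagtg
Ifitm2, chr7:140955988-140956211, minus strand: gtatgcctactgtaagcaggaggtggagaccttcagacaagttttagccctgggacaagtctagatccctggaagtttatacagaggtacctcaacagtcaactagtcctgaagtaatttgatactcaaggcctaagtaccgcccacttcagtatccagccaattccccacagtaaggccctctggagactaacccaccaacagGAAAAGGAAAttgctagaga
Ifitm3, chr7:141010714-141010743, minus strand: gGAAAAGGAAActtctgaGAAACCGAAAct

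The search covered both strands of windows of 300 bases, from 250 before to 50 after the start used for each gene. Ifitm3 held 2 matches to GAAA-NN-GAAA and Ifitm2 held 1, all on the strand of the gene. The Ifitm2 match began 46 bases before its internal start and thus lay inside the RefSeq span of the gene. The Ifitm3 matches began 2 and 19 bases after its start, and a match to TTCNNNGAA, the gamma-activated site, began 13 bases after it and overlapped the second of them. The windows of Ifitm1, Ifitm5, Ifitm6 and Ifitm7 held no match to GAAA-NN-GAAA, and the Ifitm6 window held 1 match to TTCNNNGAA. Over all 32851 promoter windows, 3.44% held GAAA-NN-GAAA and 8.3% held TTCNNNGAA. A further motif, TATAAA, was found in 13.6% of all windows, and among the members in the windows of Ifitm2, on the opposite strand, and Ifitm6. These letters are a description of the windows, and whether they bear on the levels was not tested. Ifitm1 has 3 annotated transcripts in GENCODE M21 with more than 1 start, and other starts of Ifitm1 and Ifitm2 were not searched.

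Chd2 itself was at 5.69 FPKM in Chd2mut/mut cells and 10.2 FPKM in WT cells. In the authors' deposited table it was called lower, with a q-value of 0.0103.

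Within the Ifitm family, Ifitm1 was higher in Chd2mut/mut cells and its abundant neighbours Ifitm2 and Ifitm3 were at similar levels in both genotypes. Ifitm1 was at 396 FPKM in Chd2mut/mut cells and 241 FPKM in WT cells, a ratio of 1.64. Its log2 fold change in the authors' deposited table is 0.72, and its q-value of 0.0103 is a minimum that 55 genes share. Ifitm1 was the 1 member called of 6. Of all 23309 genes, 0.124% were called higher in the authors' deposited table and 0.348% in either direction. The member was chosen with this contrast known, so nothing is read from its share.

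Ifitm2 was the most abundant member, at 514 FPKM in Chd2mut/mut cells and 498 FPKM in WT cells, a ratio of 1.03. In the authors' deposited table Ifitm2 had a q-value of 0.998 and was not called. Ifitm3, the member best known for blocking influenza virus, was at 137 FPKM in Chd2mut/mut cells and 147 FPKM in WT cells, a ratio of 0.93. In the authors' deposited table Ifitm3 too had a q-value of 0.998. A missed call does not show that the levels of Ifitm2 and Ifitm3 were the same, and with 1 value per genotype no interval for their difference can be given.

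The remaining members were at or near the floor of the table. Ifitm7 was at 0.978 FPKM in Chd2mut/mut cells and 1.42 FPKM in WT cells. Ifitm5, the osteoblast gene, was at 0.485 FPKM in Chd2mut/mut cells and 0.492 FPKM in WT cells. Ifitm6 was at 0.201 FPKM in Chd2mut/mut cells and 0.176 FPKM in WT cells. None of these was called in the authors' deposited table, with q-values of 0.998 for Ifitm7 and 1 for Ifitm5 and Ifitm6. Ifitm5 and Ifitm6 did not pass the filter used below, a mean over the genotypes of 1 FPKM or more, so 4 of the 6 members passed it.

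**Figure D1:**
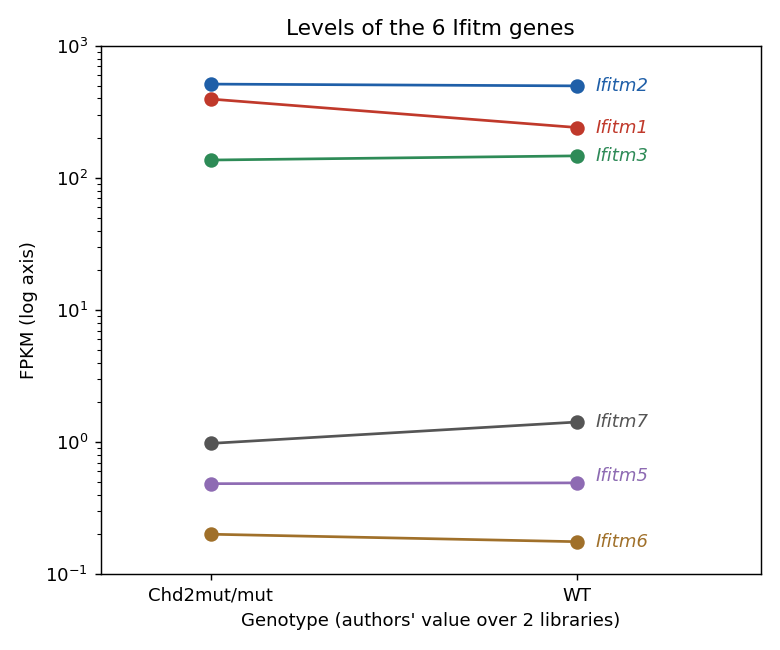
FPKM of the 6 Ifitm genes on a log axis, with Chd2mut/mut on the left and WT on the right; each point is the authors' value over 2 libraries and lines join the points of a gene. Ifitm1 is at 396 FPKM in Chd2mut/mut cells and 241 FPKM in WT cells, while the lines of Ifitm2 and Ifitm3 are nearly flat and the other members lie below 1.5 FPKM.

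The order of the members by level was the same in both genotypes, namely Ifitm2, Ifitm1, Ifitm3, Ifitm7, Ifitm5 and Ifitm6. Whether neighbours in this order differ beyond the spread of the libraries cannot be said from 1 value per genotype. The ratios between the deposited values of the abundant members differed between the genotypes, again without a measure of spread. The level of Ifitm1 was 0.77 of that of Ifitm2 in Chd2mut/mut cells and 0.484 of it in WT cells. Against Ifitm3, the level of Ifitm1 was 2.895 times as high in Chd2mut/mut cells and 1.64 times as high in WT cells. The ratio of Ifitm2 to Ifitm3 was 3.76 in Chd2mut/mut cells and 3.39 in WT cells.

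Summed over the 6 members, the family stood at 1049 FPKM in Chd2mut/mut cells and 888.7 FPKM in WT cells, a ratio of 1.18. Without Ifitm1 the other 5 members summed to 653 FPKM in Chd2mut/mut cells and 648 FPKM in WT cells, a ratio of 1.01. Ifitm1 made up 37.8% of the family sum in Chd2mut/mut cells and 27.1% in WT cells. Ifitm2 made up 49.0% of it in Chd2mut/mut cells and 56.1% in WT cells, and Ifitm3 13.0% in Chd2mut/mut cells and 16.6% in WT cells. Thus 155 FPKM of the 160 FPKM by which the sums differed lay in Ifitm1.

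All 3 abundant members ranked high among the listed genes. The level of Ifitm1 lay above that of 98.9% of genes in Chd2mut/mut cells and 98.1% in WT cells. For Ifitm2 these shares were 99.1% in Chd2mut/mut cells and 99.0% in WT cells, and for Ifitm3 they were 96.8% in Chd2mut/mut cells and 96.9% in WT cells. Among the 29 genes called higher in the authors' deposited table, Ifitm1 was the most abundant in Chd2mut/mut cells, and its gain of 155 FPKM was the largest in that set. Over all listed genes, called or not, the gain of Ifitm1 ranked 62nd. Among the 29 genes called higher, its ratio of 1.64 was below their median ratio, 1.69, and ranked 16th. The levels in that set were mostly far lower, with a median of 10.0 FPKM in Chd2mut/mut cells and 4.76 FPKM in WT cells.

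On the log2(FPKM + 1) scale, which is used for all differences below and understates changes of low genes, Ifitm1 differed by 0.71, Chd2mut/mut minus WT. The differences were 0.05 for Ifitm2, -0.10 for Ifitm3 and -0.29 for Ifitm7. The median over the 10766 genes that passed the filter was -0.0012. Of the 4 members that passed the filter, 1 was past a change of 1.5-fold, Ifitm1, in the higher direction. By this measure 0.873% of the 10766 genes were past 1.5-fold higher and 1.19% past 1.5-fold lower. Among the 1015 genes whose mean was 100 FPKM or more, 10 were past 1.5-fold higher (0.985%) and as many past 1.5-fold lower. Of these 10, Ifitm1 and Mid1, which encodes a ubiquitin ligase of microtubules, were called in the authors' deposited table, and the others were small RNA genes, Nono and Rpl26. The value of 0 for Nono in WT cells and of 0.0795 FPKM for Rpl26 in WT cells may be failed estimates.

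**Figure D2:**
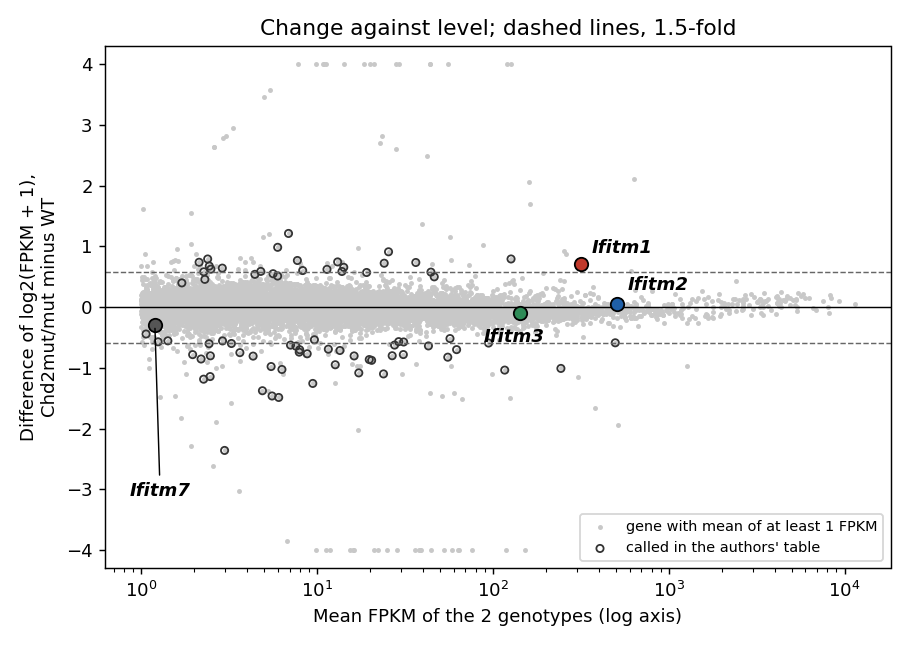
Difference of log2(FPKM + 1), Chd2mut/mut minus WT, against the mean FPKM of the genotypes on a log axis for the 10766 genes that passed the filter of 1 FPKM; open circles are called in the authors' deposited table, dashed lines mark 1.5-fold, and values beyond 4 are drawn at 4. Ifitm1, at 0.71, lies above the upper dashed line, and Ifitm2, Ifitm3 and Ifitm7 lie between the lines.

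Close relatives can share reads, so the overlap of the transcripts was measured in GENCODE M21. Of the 1056 different 50-base words of the Ifitm1 transcripts, 1.42% also occurred in another member, in each case Ifitm3, and 5.02% in any other annotated gene, including the pseudogene Gm7676. For Ifitm3, 5.56% of the words occurred in another member and 10% in any other gene. Ifitm2 shared 3.3% of its words with another member and 48.5% with any other gene. Most of these were words of Gm45717, an annotated transcript whose exons overlap those of both Ifitm5 and Ifitm2 on the same strand, and of several pseudogenes, none of them in the deposited table. With words of 30 bases Ifitm1 shared 4.18% with another member. The sources used here give neither the read length nor how reads with several matches were handled, so the levels of Ifitm2 and Ifitm3 are the less certain ones of the abundant members.

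Exons of Ifitm7 overlap exons of 2900011O08Rik on the opposite strand. That gene was at 10.7 FPKM in Chd2mut/mut cells and 11.5 FPKM in WT cells, well above Ifitm7. The library kit named in the labels does not mark strand, so reads of the shared stretch cannot be told apart and the level of Ifitm7 is uncertain.

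The genes around the chromosome 7 cluster were neither called nor past 1.5-fold. Over all 23309 genes, 0.348% were called. Of the 10766 genes that passed the filter, 0.873% were past 1.5-fold higher and 1.19% lower. With shares this small, nothing is read from the absence of such genes among so few neighbours. None of the 20 listed genes nearest to the cluster, 10 on each side, was called in the authors' deposited table, where the smallest q-value among them was 0.125. Of these 20, 15 passed the filter, with a median difference of 0.02 and a range of -0.21 to 0.47. The highest was that of B4galnt4, the first listed gene beyond Ifitm6, which encodes a glycosyltransferase. B4galnt4 was at 14.1 FPKM in Chd2mut/mut cells and 9.83 FPKM in WT cells. Next to it, Pkp3, which encodes the desmosome protein plakophilin, was at 5.69 FPKM in Chd2mut/mut cells and 4.75 FPKM in WT cells. Sigirr, which encodes a receptor that dampens interleukin signalling, was at 14.2 FPKM in Chd2mut/mut cells and 15.3 FPKM in WT cells.

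On the other side, the first listed gene before Ifitm5 was Athl1, at 5.62 FPKM in Chd2mut/mut cells and 4.61 FPKM in WT cells. Nlrp6, which encodes an inflammasome protein, was at 0.203 FPKM in Chd2mut/mut cells and 0.244 FPKM in WT cells. BC024386 was at 10.7 FPKM in Chd2mut/mut cells and 11.6 FPKM in WT cells. Thus the genes flanking the cluster directly, Athl1 and B4galnt4, were both above 0 in their difference, at 0.24 and 0.47, and inside the cluster Ifitm2 and Ifitm3, on either side of Ifitm1, were near 0. Around Ifitm7, none of the 10 nearest listed genes was called, against 0.348% of all genes. Of these 10, 8 passed the filter, with a median difference of -0.02 and a range of -0.93 to 0.05. The lowest, that of 1810007I06Rik, was past 1.5-fold lower, at 24.7 FPKM in Chd2mut/mut cells and 48.1 FPKM in WT cells, and larger in size than the difference of -0.29 of Ifitm7.

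**Figure D3:**
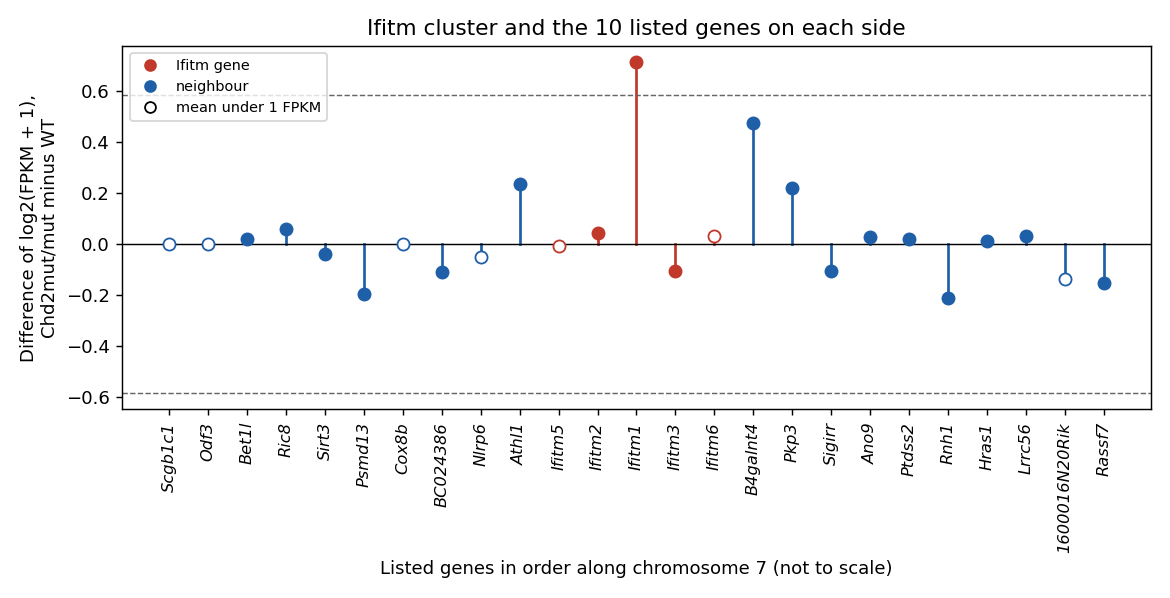
Difference of log2(FPKM + 1), Chd2mut/mut minus WT, for the 5 Ifitm genes of chromosome 7 in red and the 10 listed genes on each side in blue, in chromosomal order; open symbols mark genes with a mean under 1 FPKM and dashed lines mark 1.5-fold. Ifitm1 at 0.71 is the 1 gene past a dashed line, and B4galnt4 at 0.47 is the next highest.

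All 19 listed interferon genes, among them Ifnb1 and Ifng, were listed at 0 FPKM in both genotypes. A listed 0 can be a failed estimate, as may be the case for Nono in WT cells, so it does not show that a gene was not expressed. Their receptors were low, with 3 of 6 listed receptor genes passing the filter and none called. Over all 23309 genes, 0.348% were called, so nothing is read from the absence of calls in this list or in the lists below. Ifnar1, a subunit of the receptor for type I interferons, was at 6.49 FPKM in Chd2mut/mut cells and 6.002 FPKM in WT cells, and its partner Ifnar2 was at 1.83 FPKM in Chd2mut/mut cells and 2.61 FPKM in WT cells. Ifngr2, of the interferon gamma receptor, was at 2.167 FPKM in Chd2mut/mut cells and 2.38 FPKM in WT cells.

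None of the 18 interferon signalling genes and none of the 16 nucleic acid sensor genes was called in the authors' deposited table, which gives no p-values. The share called over all genes was 0.348%. The 12 signalling genes that passed the filter had a median difference of 0.05, with 7 above 0 and 5 below. Socs1, a feedback inhibitor, was at 3.88 FPKM in Chd2mut/mut cells and 3.10 FPKM in WT cells, and Socs3, a feedback inhibitor that also acts on leukemia inhibitory factor signalling, was at 28.2 FPKM in Chd2mut/mut cells and 34.9 FPKM in WT cells. Ptpn6, a phosphatase, was at 13.0 FPKM in Chd2mut/mut cells and 15.7 FPKM in WT cells. The 8 sensor genes that passed had a median difference of 0.04, and Ticam1, Myd88, Zbp1 and Mavs, their members with the largest differences, lay between -0.23 and 0.19.

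No gene on the list of interferon-stimulated genes, which leaves out the Ifitm genes, was called. The 54 listed were all uncalled in the authors' deposited table, where their smallest q-value was 0.0964. With 0.348% of all 23309 genes called, nothing is read from this. Of these, 22 passed the filter, with a median difference of 0.08, 13 above 0 and 9 below, against 49.6% above 0 over all 10766 genes. On the log2(FPKM + 1) scale none of the 22 was past 1.5-fold, against 0.873% higher and 1.19% lower over all 10766 genes. Without the added 1, the ratio of WT to Chd2mut/mut was 1.86 for Oas1a, 1.92 for Oas1g and 1.56 for Oas2. The largest ratio of Chd2mut/mut to WT among the 22 was 1.44, that of Dtx3l. The members with the largest differences were of both signs. Oas1a, an antiviral oligoadenylate synthetase, was at 0.938 FPKM in Chd2mut/mut cells and 1.75 FPKM in WT cells, and Oas1g was at 0.773 FPKM in Chd2mut/mut cells and 1.48 FPKM in WT cells. The Oas1 genes are close copies, so their separate levels are uncertain. H2-K1, a class I histocompatibility gene, was at 7.33 FPKM in Chd2mut/mut cells and 5.10 FPKM in WT cells, and Dtx3l, a ubiquitin ligase, was at 4.44 FPKM in Chd2mut/mut cells and 3.08 FPKM in WT cells.

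Antiviral restriction factors are proteins that block steps of the viral life cycle, and some are also interferon-stimulated genes. None of 20 listed was called, against 0.348% of all genes, and the 14 that passed the filter had a median difference of -0.04. Those with the largest differences were Ly6e, at 48.8 FPKM in Chd2mut/mut cells and 59.1 FPKM in WT cells, Zc3hav1, at 3.68 FPKM in Chd2mut/mut cells and 4.203 FPKM in WT cells, Serinc5, at 1.56 FPKM in Chd2mut/mut cells and 1.34 FPKM in WT cells, and Adar, at 8.64 FPKM in Chd2mut/mut cells and 7.89 FPKM in WT cells. Bst2, the tetherin that holds budding virus at the cell surface, was chosen after its values were seen, as an interferon-stimulated gene with a level near that of Ifitm3. It was at 116 FPKM in Chd2mut/mut cells and 119 FPKM in WT cells.

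**Figure D4:**
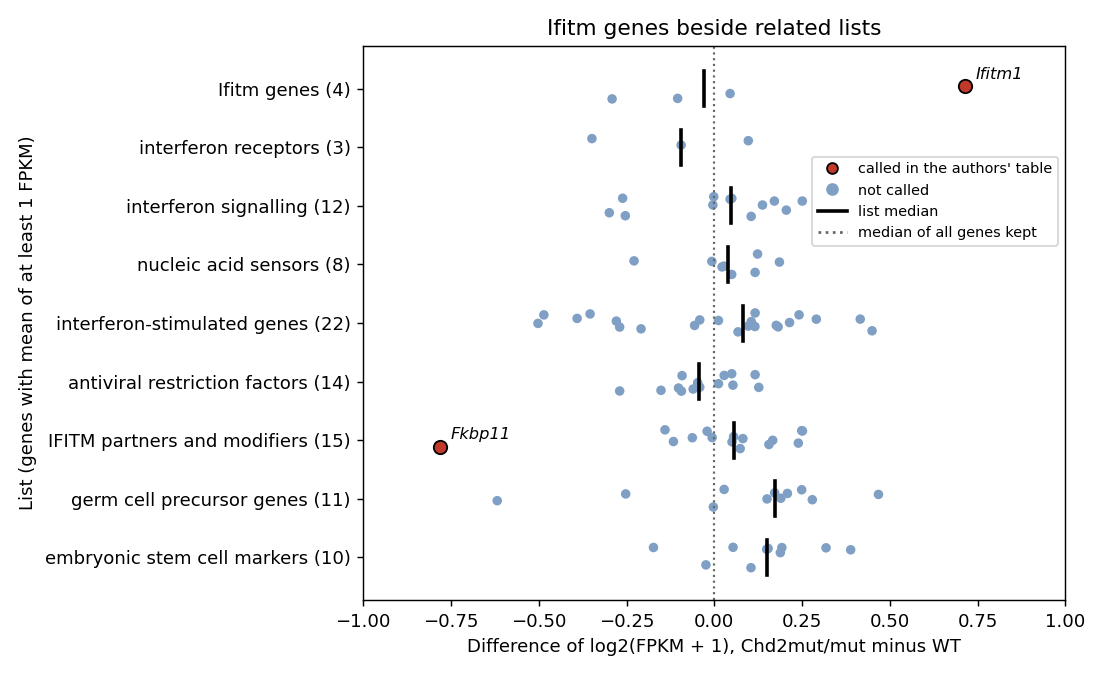
Difference of log2(FPKM + 1), Chd2mut/mut minus WT, of the genes that passed the filter of 1 FPKM in the Ifitm family and in 8 related lists, with the number of genes in brackets; red points are called in the authors' deposited table, black bars are list medians and the dotted line is the median of all 10766 genes. Ifitm1 at 0.71 and Fkbp11 at -0.78 are the called genes, and the list medians lie between -0.09 and 0.17.

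Genes whose proteins bind or modify IFITM proteins held 1 call in the lower direction. Fkbp11, a prolyl isomerase of the endoplasmic reticulum that binds IFITM5 in osteoblasts, fell to 22.6 FPKM in Chd2mut/mut cells, against 39.5 FPKM in WT cells. In the authors' deposited table Fkbp11 has a log2 fold change of -0.81 and a q-value of 0.0103. Of the 23309 genes, 0.223% were called lower. The list was chosen with earlier results of these data known, so nothing is read from its 1 call. Ifitm5, the partner of Fkbp11, was below 0.5 FPKM in both genotypes, as given above. The other 15 listed genes of this kind were not called, and the 15 that passed the filter, Fkbp11 included, had a median difference of 0.06. Nedd4, a ubiquitin ligase that acts on IFITM3, was at 386 FPKM in Chd2mut/mut cells and 327 FPKM in WT cells. Zdhhc20, a palmitoyltransferase that modifies IFITM3, was at 3.17 FPKM in Chd2mut/mut cells and 2.51 FPKM in WT cells, and Fyn, a kinase that phosphorylates IFITM3, was at 3.84 FPKM in Chd2mut/mut cells and 3.07 FPKM in WT cells.

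Relatives outside the family that carry the same CD225 domain were low in the table. Of 8 listed, only Prrt2, a synaptic protein gene, passed the filter, at 1.23 FPKM in Chd2mut/mut cells and 1.06 FPKM in WT cells. Ifitm10 was listed at 0 FPKM in Chd2mut/mut cells and at 0.0100 FPKM in WT cells.

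Because Ifitm1 and Ifitm3 are known from germ cell precursors, genes of that lineage were set beside them. None of 13 listed was called in the authors' deposited table, against 0.348% of all genes. The smallest q-value there among the 13, 0.0667, was that of Prdm1. Of these, 11 passed the filter, with 8 above 0 and 3 below, against 49.6% above 0 over all 10766 genes. The median difference of the 11 was 0.17. Prdm1, which encodes the repressor that starts the lineage in the mouse, was at 2.58 FPKM in Chd2mut/mut cells and 1.59 FPKM in WT cells. Mael, of the piRNA pathway, was past 1.5-fold lower, at 2.68 FPKM in Chd2mut/mut cells and 4.64 FPKM in WT cells. Of the 10766 genes that passed the filter, 1.19% were past 1.5-fold lower, so nothing is read from 1 gene. Ddx4, which encodes an RNA helicase of germ cells, was at 6.65 FPKM in Chd2mut/mut cells and 5.30 FPKM in WT cells. Nanos3, needed for germ cell survival, was at 1.99 FPKM in Chd2mut/mut cells and 2.56 FPKM in WT cells.

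Markers of the labelled cell type were abundant. All 10 embryonic stem cell markers passed the filter, with a summed level of 7232 FPKM in Chd2mut/mut cells and 6601 FPKM in WT cells. Dppa5a made up most of that sum and most of its difference between the genotypes. The median difference of the 10 was 0.15, and none was called, against 0.348% of all genes. Of the 10, 8 were above 0 and 2 below, against 49.6% above 0 over all 10766 genes. The 2 below were Utf1, at 615 FPKM in Chd2mut/mut cells and 694 FPKM in WT cells, and Tdgf1, at 212 FPKM in Chd2mut/mut cells and 216 FPKM in WT cells. The members with the largest differences were Nanog, at 150 FPKM in Chd2mut/mut cells and 114 FPKM in WT cells, Sox2, at 222 FPKM in Chd2mut/mut cells and 178 FPKM in WT cells, Fgf4, at 47.1 FPKM in Chd2mut/mut cells and 41.1 FPKM in WT cells, and Dppa5a, at 4380 FPKM in Chd2mut/mut cells and 3844 FPKM in WT cells.

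Most markers of other cells that express Ifitm genes did not pass the filter. Of 10 fibroblast markers 1 passed the filter, Thy1, at 11.5 FPKM in Chd2mut/mut cells and 14.2 FPKM in WT cells, 4 were listed at 0 in both genotypes, and the list summed to 11.9 FPKM in Chd2mut/mut cells and 14.7 FPKM in WT cells. Of 8 macrophage and blood markers 2 passed, Cd68, at 11.0 FPKM in Chd2mut/mut cells and 8.89 FPKM in WT cells, and Cd3e, at 2.12 FPKM in Chd2mut/mut cells and 2.28 FPKM in WT cells, while Ptprc and Lyz2 were listed at 0 in both. That list summed to 13.3 FPKM in Chd2mut/mut cells and 11.3 FPKM in WT cells. Of 6 endothelial markers 1 passed, Tek, at 3.445 FPKM in Chd2mut/mut cells and 2.31 FPKM in WT cells, and the list summed to 5.57 FPKM in Chd2mut/mut cells and 4.10 FPKM in WT cells. None of 7 osteoblast markers passed, with a sum of 0.168 FPKM in Chd2mut/mut cells and 0.414 FPKM in WT cells and 4 listed at 0 in both genotypes. None of these markers was called, against 0.348% of all genes. In RNA from a whole culture, more cells that express a gene and more RNA per cell cannot be told apart.

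The genes most like each member were sought as those with the smallest distance over the log2(FPKM + 1) values of both genotypes, which are only 2 values per gene. Symbols that begin with Mir, Snor, Scarna or Gm were left out. For Ifitm1 they were 1110038B12Rik, at a distance of 0.33, H2afx at 0.397 and Pmm1 at 0.402. H2afx, which encodes a histone H2A variant, was at 359.95 FPKM in Chd2mut/mut cells and 312 FPKM in WT cells, so the nearest genes differed less between the genotypes than Ifitm1 did. For Ifitm2 the nearest were Rpl37, 1810022K09Rik and Park7, at distances up to 0.0603, for Ifitm3 they were Ftsj3, Myl12a and Psmd1, at up to 0.04, and for Ifitm7 they were Qsox1, Cd1d1 and Dlg4, at up to 0.0171. None of these 12 genes was called in the authors' deposited table, against 0.348% of all genes. Among the genes compared, the nearest to Ifitm1 lay farther from it than the nearest of the other 3 members did from them. The distances use the values by which the family was chosen, so nothing is read from this.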

How the data were processed

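RNA from 2 WT and 2 Chd2mut/mut libraries was measured. The submitters' processing notes name mm9, TopHat2 2.1.0, Cufflinks and bcl2fastq 2.17.1.14. The deposited FPKM, log2 fold change of Chd2mut/mut over WT and q-value of each gene are the authors', per the file headers. A call is a q-value under 0.05. The sources used here name no Cufflinks version, annotation or test. Depth is unknown, so no counting interval is given.

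Differences of log2(FPKM + 1) were computed with numpy 2.4.6 and pandas 2.3.3 and described for genes whose mean was 1 FPKM or more. No test was run: the table has 1 value per genotype. The members and the gene lists were chosen with earlier results of these data known. All members, the 3 listed neighbours on each side, up to 4 genes per list (calls first, then the largest differences), the 3 genes most like each member and Chd2 are named; 1 gene that this rule names is not reported here, and other genes were chosen after their values were seen. Neighbours followed RefSeq order on GRCm38.p6, matched by symbol or synonym. Counting of changed genes was tried on simulated data, in genes with a mean of 5 FPKM or more. The planted changes were well past 1.5-fold and without noise, so genes near either threshold were not tried. The motif search was tried on short made-up sequences. Alternatives were the pseudocount, the filter, the fold and the scaling. Protein sequences are not used here.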

Additional observations from a re-analysis of the deposited data

How the results depend on the processing

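No paired analysis was possible because the table gives 1 value per genotype, so neither the lots as a block nor leaving out a library could be run. Values were taken as unmoved within 0.1 on the log2 scale, or within 1.5 times for counts. By this, 120 of 139 alternative values were unmoved. A reversal of sign was looked for in Ifitm1 only, which kept its sign. Others near 0 did change sign. The median of the antiviral restriction factors, -0.04, was 0.006 with quantile normalization, and Ifitm5 changed sign with quantile normalization and upper quartile scaling. The difference of Ifitm1 stayed between 0.70 and 0.77 under pseudocounts of 0.1, 5 or none, quantile normalization, a median set to 0 and upper quartile scaling. Ifitm2 moved to 0.15 with quantile normalization. Ifitm3 stayed below 0 throughout, from -0.11 to -0.05. Ifitm7 was at -0.50 with a pseudocount of 0.1, -0.10 with 5 and -0.54 with none, and Ifitm6 at 0.19 with none. The log2 ratio of the family sums, 0.24, was 0.011 without Ifitm1. Ifitm1 passed 1.5-fold but not 2-fold, so 0 members were past 2-fold. Genes past the fold, higher and lower, numbered 94 and 128; they were 177 and 196 with a pseudocount of 0.1, 51 and 68 with 5, 57 and 84 where the mean was 5 FPKM or more, 10 and 10 where it was 100 or more, 39 and 60 at 2-fold, and 409 and 412 at a change of 25%. The filter at 100 FPKM, the ratio without a pseudocount and the sum without Ifitm1 were chosen after seeing the data. The medians of the lists moved by less than 0.1; interferon receptors had too few genes at 5 FPKM or more for a median. Ifitm5, uncalled and near 0, lay between -0.02 and 0.01.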

Other observations

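Among the interferon-stimulated genes below the filter, Gbp2, which encodes an interferon-induced GTPase, had the smallest q-value of its list and was named after its values were seen. Gbp2 was at 1.33 FPKM in Chd2mut/mut cells and 0.493 FPKM in WT cells, and in the authors' deposited table its q-value of 0.0964 did not give a call. Ifngr1, the ligand-binding subunit of the interferon gamma receptor, was also named after its values were seen, at 0.879 FPKM in Chd2mut/mut cells and 0.43 FPKM in WT cells, with a q-value of 0.508 in the authors' deposited table. Isg15, a ubiquitin-like protein that interferon induces strongly in many cells, was named after its values were seen too. It was at 0.373 FPKM in Chd2mut/mut cells and 0.544 FPKM in WT cells, far below the 3 abundant Ifitm genes in both genotypes. The list that holds Isg15 was mixed in level, and 22 of its 54 genes passed the filter. Among these, Bst2 was at 116 FPKM in Chd2mut/mut cells and 119 FPKM in WT cells. Ly6e was at 48.8 FPKM in Chd2mut/mut cells and 59.1 FPKM in WT cells.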
